A study of Mus musculus with 17 samples.

Results

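The classical cadherins and their catenins are the core of the adherens junction. Of the 20572 genes in the RNA and ribosome footprint tables, 6 were taken by name: the cadherins Cdh1 (E-cadherin), Cdh2 (N-cadherin) and Cdh3 (P-cadherin), and the catenins Ctnna1 (alpha-catenin), Ctnnb1 (beta-catenin) and Ctnnd1 (p120-catenin). The rule that chose them used no measured value, though it was written with earlier results of these data known, and all 6 passed the filter on low counts in both assays. In footprints, Cdh2 passed that filter only through its knockdown libraries, since control libraries 1 and 3 held 7 and 3 reads. The study used mouse keratinocytes in which Musashi-2 (Msi2) was lowered. Msi2 binds messenger RNAs, chiefly in their 3' UTRs. It measured RNA abundance, ribosome-protected RNA fragments (footprints) and, by HITS-CLIP, the RNA regions bound by Msi2. The question put to the 6 genes was whether E-cadherin gives way to N-cadherin.

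Cadherins are transmembrane proteins that bind the same kind of cadherin on the neighbouring cell through their outer domains. Inside the cell, beta-catenin binds the far end of the cadherin tail and carries alpha-catenin, which links the complex to actin, while p120-catenin binds the tail next to the membrane and holds the cadherin at the surface by slowing its uptake. Basal keratinocytes of the epidermis carry E- and P-cadherin. N-cadherin is a cadherin of neurons, muscle and mesenchymal cells, and its appearance with loss of E-cadherin in epithelial cells is known as the cadherin switch.

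All libraries came from a keratinocyte culture of C57BL/6 mice, taken from neonatal skin, that became immortal without an added gene. It was grown for 3 passages on mitomycin-C-treated NIH-3T3 J2 feeder cells, a mouse fibroblast line, and then on uncoated dishes. The knockdown group received a lentivirus with an shRNA against Msi2 and the control group a lentivirus with a scrambled shRNA. Both groups were selected with puromycin at 2 ug/ml for 2 days and expanded, and the cultures for footprints were also exposed to cycloheximide just before harvest. RNA was polyadenylated RNA from 3 knockdown and 3 control libraries, and footprints came from another 3 and 3. The number of hairpins against Msi2 is not given in the sources used here. The 5 CLIP libraries came from cells irradiated with UVC at 200 mJ/cm2 and used an antibody to Msi2. They differed in RNase: undiluted in 1 library, diluted 20-fold in 2 libraries that took different molecular weight ranges, 50-fold in 1 and 75-fold in 1.

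Gene counts were 9221566 to 26785876 in the knockdown and 11291571 to 24931967 in the control RNA libraries. Footprint libraries were shallower, with 512256 to 2069440 counts in the knockdown and 702602 to 2959625 in the control. Msi2 footprints averaged 3.22 ± 2.80 CPM (TMM-scaled counts per 1e6) in the knockdown and 17.4 ± 0.815 CPM in the control (SD, n = 3 each; edgeR log2 fold change -2.08, adjusted p = 0.000285). Those Msi2 footprints were 9, 0 and 5 reads in the knockdown libraries and 39, 50 and 13 in the control libraries. Msi2 passed the filter on low counts in footprints only through its control libraries. Its footprint test therefore describes the fall and is no separate support for it. Msi2 RNA averaged 6.02 ± 0.796 CPM in the knockdown and 7.32 ± 1.30 CPM in the control, and did not pass (adjusted p = 0.283). The labels do not say whether each library had a culture of its own, so the p-values rest on a spread between libraries that may be only technical. In such bulk samples, fewer cells of a type and less RNA per cell cannot be told apart.

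N-cadherin rose 12.5-fold in RNA and 10.4-fold in footprints on Msi2 knockdown, while E-cadherin RNA fell to 0.799 of its control level. P-cadherin RNA fell to 0.760 of its control level, p120-catenin RNA rose 1.96-fold, and alpha- and beta-catenin did not pass the test in either assay. In RNA, 4 of the 6 genes were called at an adjusted p under 0.05, 2 higher and 2 lower, beside 43.8% of all 11117 genes tested (22.0% higher and 21.7% lower). In footprints, 3 of the 6 were called, 2 higher and 1 lower, beside 16.1% of 8969 genes (8.76% higher and 7.38% lower). With so many RNA calls in all, the count of 4 is not by itself a result about these genes, and the sizes of change follow gene by gene.

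**Figure D1:**
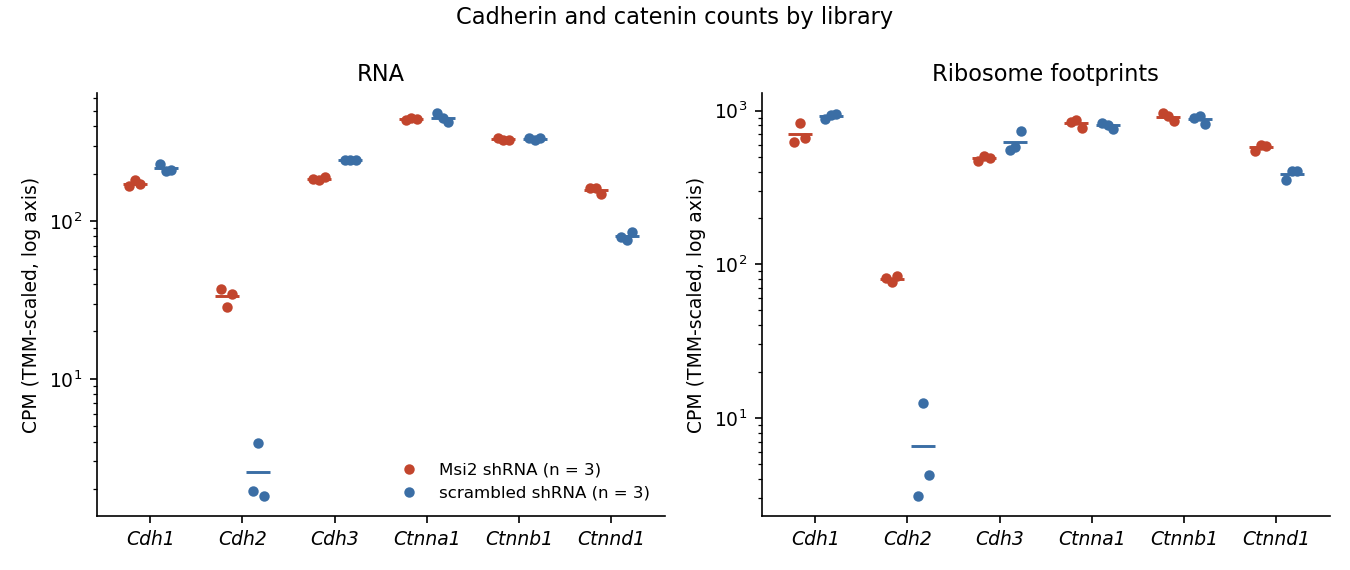
Level of each cadherin and catenin in every RNA library (left) and footprint library (right), in TMM-scaled CPM on a log axis, with the Msi2 shRNA libraries left of the scrambled shRNA libraries; points are libraries and bars are means (n = 3 each). Cdh2 stands far apart between the groups, Ctnnd1 is higher and Cdh1 and Cdh3 are lower in the Msi2 shRNA libraries, and the groups of Ctnna1 and Ctnnb1 overlap.

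Cdh2, the gene of N-cadherin (chromosome 18, 16588877 to 16809246, GRCm38.p6), had 37.0, 28.4 and 34.8 CPM of RNA in the knockdown libraries, against 1.95, 3.93 and 1.80 CPM in the control libraries. The reads behind these values were 356, 354 and 926 in the knockdown and 38, 90 and 21 in the control. Every knockdown library lay well above every control library, and control library 2 was the highest of its group. The RNA log2 fold change was 3.64 ± 0.23 (SE), 12.5-fold with a 95% interval of 8.89 to 17.5 (edgeR quasi-likelihood test, adjusted p = 2.45e-08). It was the 7th largest increase among the 11117 genes tested.

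Footprints on Cdh2 followed. They came to 81.6, 76.2 and 83.9 CPM in the knockdown, against 3.07, 12.4 and 4.23 CPM in the control, from 162, 38 and 82 reads in the knockdown and 7, 37 and 3 in the control. The groups did not overlap, and control library 2 again held most of the control reads. The footprint log2 fold change was 3.39 ± 0.28, 10.4-fold with a 95% interval of 7.06 to 15.5 (edgeR, adjusted p = 1.53e-10), the 2nd largest increase among 8969 genes. Because Cdh2 passed the footprint filter only through its knockdown libraries, this test and rank describe the increase and are no separate support for it. With a library left out, the footprint log2 fold change ran from 2.93, without control library 1, to 4.55, without control library 2, so the size of the increase rests in part on single control libraries. The call was made whichever library was left out.

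Cdh1, the gene of E-cadherin (chromosome 8, 106603350 to 106670247), had 166, 181 and 171 CPM of RNA in the knockdown, against 231, 206 and 211 CPM in the control. Its footprints came to 624, 824 and 658 CPM in the knockdown, against 875, 931 and 949 CPM in the control. All knockdown libraries were lower than all control libraries in both assays, and none approached loss of the gene. In RNA the fold was 0.799 with a 95% interval of 0.681 to 0.937 (log2 -0.32 ± 0.11, edgeR adjusted p = 0.0237), and in footprints 0.760 with an interval of 0.632 to 0.913 (log2 -0.40 ± 0.13, adjusted p = 0.0324). Counted from the lowest fold change, Cdh1 ranked 2889th of 11117 genes in RNA and 1541st of 8969 in footprints. Both calls were near the threshold. The RNA call was lost without knockdown library 1 (adjusted p = 0.108), knockdown library 3 (0.0928) or control library 1 (0.0805), and the footprint call without knockdown library 1 (0.215), knockdown library 3 (0.213), control library 1 (0.0543) or control library 2 (0.0611). The fall stayed between -0.36 and -0.29 in RNA and between -0.51 and -0.31 in footprints on the log2 scale.

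Cdh3 encodes P-cadherin, the other classical cadherin of basal keratinocytes. It lies on the same strand 46438 bases before Cdh1 (chromosome 8, 106510852 to 106556911). Its RNA was 184, 182 and 190.5 CPM in the knockdown, against 245, 243 and 245 CPM in the control, with little spread inside either group. The RNA fold was 0.760 with a 95% interval of 0.650 to 0.888 (log2 -0.40 ± 0.11, edgeR adjusted p = 0.00654), and the call was made whichever library was left out. Footprints were 469.8, 505 and 492 CPM in the knockdown, against 557, 578 and 739 CPM in the control. These groups did not overlap either, but the footprint difference did not pass the test (log2 -0.35 ± 0.13, adjusted p = 0.0688; fold 0.786, interval 0.652 to 0.947). With a library left out, the footprint value ran from -0.43 to -0.22, the latter without control library 3, and never passed (adjusted p 0.0556 to 0.245). It passed under only 1 alternative, chosen after seeing the data. There each library's trend over the genomic span of genes was removed (-0.36, adjusted p = 0.0466). P-cadherin RNA thus moved with E-cadherin RNA: the log2 ratio of Cdh3 to Cdh1 counts within a library differed by -0.07 in RNA and 0.06 in footprints between knockdown and control.

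Groups that do not overlap were seen for Cdh1, Cdh2, Cdh3 and Ctnnd1, 4 of the 6 genes, in both assays. Among all genes tested, the groups did not overlap in 52.9% for RNA and 31.4% for footprints.

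**Figure D2:**
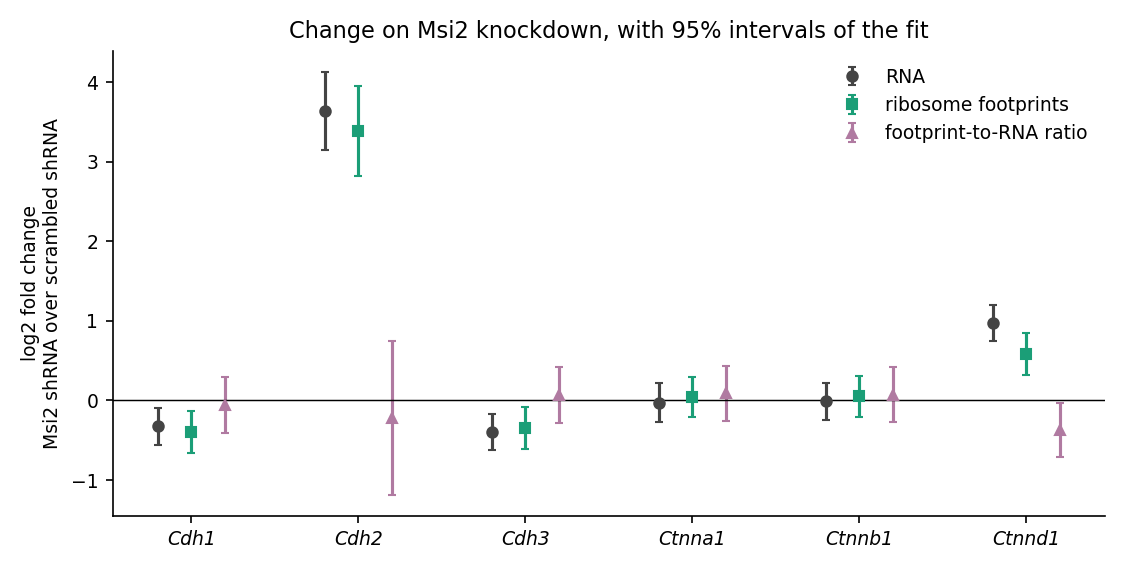
Log2 fold change of each cadherin and catenin, Msi2 shRNA over scrambled shRNA, in RNA, in footprints and in the footprint-to-RNA ratio; points are the edgeR estimates and bars their 95% intervals. Cdh2 lies at 3.64 in RNA and 3.39 in footprints, Ctnnd1 at 0.97 and 0.58, and the intervals of Ctnna1 and Ctnnb1 span 0 throughout.

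Set against each other within a library, where library size cancels, Cdh2 reads rose relative to Cdh1 reads. For every 100 Cdh1 reads, the RNA libraries held 22.3, 15.6 and 20.4 Cdh2 reads in the knockdown and 0.842, 1.90 and 0.852 in the control. The footprint libraries held 13.1, 9.25 and 12.8 in the knockdown and 0.351, 1.33 and 0.446 in the control. In log2, with 0.5 counts added to each gene, the RNA ratio averaged -2.38 ± 0.26 in the knockdown and -6.47 ± 0.66 in the control (SD, n = 3 each), a difference of 4.10. The footprint ratio averaged -3.10 ± 0.27 in the knockdown and -7.28 ± 0.96 in the control, a difference of 4.18, or of 3.59 with 5 counts added. Nearly all of that difference is the change in Cdh2, since Cdh1 moved by -0.32 in RNA and -0.40 in footprints. Reads are not corrected for gene length here, so these ratios compare groups and do not give the proportion of N-cadherin to E-cadherin messages. No test was made of the ratio, which repeats the tests of its parts. In these libraries a strong gain of N-cadherin went with a partial fall of E-cadherin and no loss of it.

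**Figure D3:**
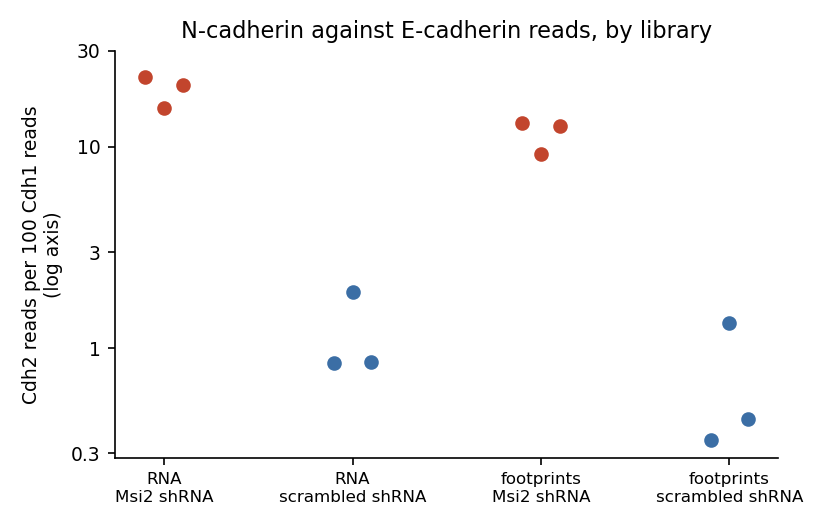
Cdh2 reads per 100 Cdh1 reads in each library, on a log axis, for RNA and footprints, with Msi2 shRNA left of scrambled shRNA; each point is 1 library. The Msi2 shRNA libraries lie between 9.25 and 22.3 and the scrambled shRNA libraries between 0.351 and 1.90.

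Among the catenins, Ctnnd1 was the one that changed. It encodes p120-catenin (chromosome 2, 84587096 to 84658977, minus strand). Its RNA was 161, 162 and 149 CPM in the knockdown, against 79.0, 76.1 and 85.6 CPM in the control, with no overlap. The RNA fold was 1.96 with a 95% interval of 1.68 to 2.29 (log2 0.97 ± 0.11, edgeR adjusted p = 4.30e-06). Footprints were 549, 598 and 587 CPM in the knockdown, against 351, 404 and 403 CPM in the control, again with no overlap. The footprint fold was 1.50 with an interval of 1.25 to 1.79 (log2 0.58 ± 0.13, adjusted p = 0.00118). Both calls were made whichever library was left out.

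Ctnnb1, which encodes beta-catenin, both a cadherin partner and the effector of Wnt signalling, lies on chromosome 9, 120933400 to 120960507. Its RNA was 335, 329 and 327 CPM in the knockdown, against 335, 327 and 334 CPM in the control. Its footprints were 968, 917 and 856 CPM in the knockdown, against 900.1, 922 and 821 CPM in the control. The groups overlapped in both assays. The 95% interval of the fold ran from 0.847 to 1.17 in RNA (adjusted p = 0.961) and from 0.868 to 1.24 in footprints (adjusted p = 0.835), so a change within that range could not be told from none.

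Ctnna1, the actin-linking alpha-catenin, lies on chromosome 18, 35118902 to 35254776. It had 438, 450 and 443 CPM of RNA in the knockdown, against 486, 448 and 425 CPM in the control. Footprints were 839, 868 and 775 CPM in the knockdown, against 832, 809.8 and 760.4 CPM in the control. Here too the groups overlapped in both assays. The interval of the fold ran from 0.827 to 1.16 in RNA (adjusted p = 0.851) and from 0.864 to 1.23 in footprints (adjusted p = 0.860). Both Lrrtm2 and the predicted gene Gm46617 overlap Ctnna1, and the microRNA gene Mir7090 overlaps Ctnnb1; reads of ambiguous assignment, which the counting set aside, were at most 0.228% of any RNA library.

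The balance between catenins therefore shifted towards p120. For every 100 Ctnnb1 reads, the RNA libraries held 48.0, 49.2 and 45.5 Ctnnd1 reads in the knockdown and 23.6, 23.3 and 25.6 in the control. The footprint libraries held 56.7, 65.2 and 68.6 in the knockdown and 39.0, 43.8 and 49.1 in the control. As above, these are read ratios without a length correction. Against Cdh1, the log2 ratio of Ctnnd1 was higher in the knockdown by 1.29 in RNA and by 0.98 in footprints.

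For Cdh1, Cdh2, Cdh3 and Ctnnd1, footprints changed in the same direction as RNA. Translational efficiency, the footprint-to-RNA ratio was tested with edgeR in 1 model of all 12 libraries. It was called for 0 of the 6 genes, beside 0.203% of 10821 genes tested (0.129% higher and 0.0739% lower). The log2 change of the ratio was -0.06 ± 0.17 for Cdh1 (adjusted p = 0.935), -0.22 ± 0.46 for Cdh2 (0.903) and 0.07 ± 0.17 for Cdh3 (0.925). It was 0.09 ± 0.17 for Ctnna1 (adjusted p = 0.889) and 0.07 ± 0.17 for Ctnnb1 (0.914). Only Ctnnd1 had an unadjusted p under 0.05 (0.0324), at -0.37 ± 0.17, and its adjusted p was 0.364. With a library left out, the Ctnnd1 value stayed between -0.51 and -0.32 and was never called (lowest adjusted p = 0.0841). Mean footprint CPM over mean RNA CPM of Ctnnd1 came to 3.68 in the knockdown and 4.81 in the control, and for Cdh1 to 4.07 in the knockdown and 4.25 in the control. DESeq2 called none of the 5 genes to which it gave an adjusted p, and gave none for Cdh2. The interval is widest for Cdh2, from 0.441 to 1.67 as a fold, with 47 footprint reads in the control libraries together.

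The deposited CLIP regions were searched for the same genes. The list of regions in 3' UTRs holds 2671 peaks in 1199 genes, and 5 of the 6 genes have at least 1 peak there, 20 peaks in all. Cdh2 has none in that list, nor among the other listed peaks within its span. Cdh2 had 149 RNA reads in the 3 control libraries together, the fewest of the 6, and whether its low level in these keratinocytes bears on the lack of a listed peak was not tested. For scale, 10.3% of the genes tested in RNA have such a peak, and 27.7% of the 1476 genes with an average log2 CPM of 6.89 or more, the lowest value among the 5.

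Ctnnd1 has the most, 9 peaks, a number reached by 38 of the 1199 genes, against a median of 1. Their heights, the authors' total peak height over all 5 libraries, ran from 10 to 44, and the tallest lies at chr2:84601054-84601620. Height equals the reads summed over the 5 libraries in 78% of all 3' UTR peaks and differs from them in the rest. The reads in the 9 Ctnnd1 peaks were 1, 24, 45, 44 and 67 in CLIP libraries 1 to 5. The edges of these peaks nearest the annotated gene end lie 10274 to 15619 bases from it in RefSeq's GRCm38.p6 gene models. The 3' UTR that the authors used for Ctnnd1 is thus not the last stretch of the longest RefSeq span. A further 5 listed peaks lie in the Ctnnd1 span outside the 3' UTR list.

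Cdh1 has 5 peaks in its 3' UTR, all within the last stretch of the gene, and the most reads of the 6 genes, with 5, 43, 73, 63 and 59 in libraries 1 to 5. The tallest, with a height of 72, is chr8:106668470-106669105, and the last ends at the annotated end of the gene. Ctnnb1 has 3 peaks, with 3, 36, 66, 55 and 53 reads, and chr9:120960086-120960329 alone holds 120 reads over the 5 libraries, at a height of 29. The read total of Cdh1, 243, was reached by 76 of the 1199 genes and that of Ctnnb1, 213, by 91, and libraries 2 to 5 all contributed.

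Ctnna1 has 2 peaks, with 1, 17, 17, 25 and 13 reads in libraries 1 to 5. Cdh3 has 1, chr8:106555995-106556132, and 27 of its 43 reads came from library 2, where library 1 had 0 and libraries 3 to 5 had 3, 3 and 10. Library 1, the undiluted RNase library, held only 6608 reads in all listed peaks, against 44753 to 61629 in the other libraries. Per 10000 such reads, library 1 held 7.57 reads in Cdh1 peaks and 1.51 in Ctnnd1 peaks, and libraries 2 to 5 held 9.61 to 14.4 in Cdh1 peaks and 5.36 to 12.5 in Ctnnd1 peaks. The genes with peaks moved in both directions or not at all: Ctnnd1 rose, Cdh1 and Cdh3 fell in RNA, and Ctnna1 and Ctnnb1 did not pass the test. The gene with the largest change, Cdh2, has no listed peak.

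**Figure D4:**
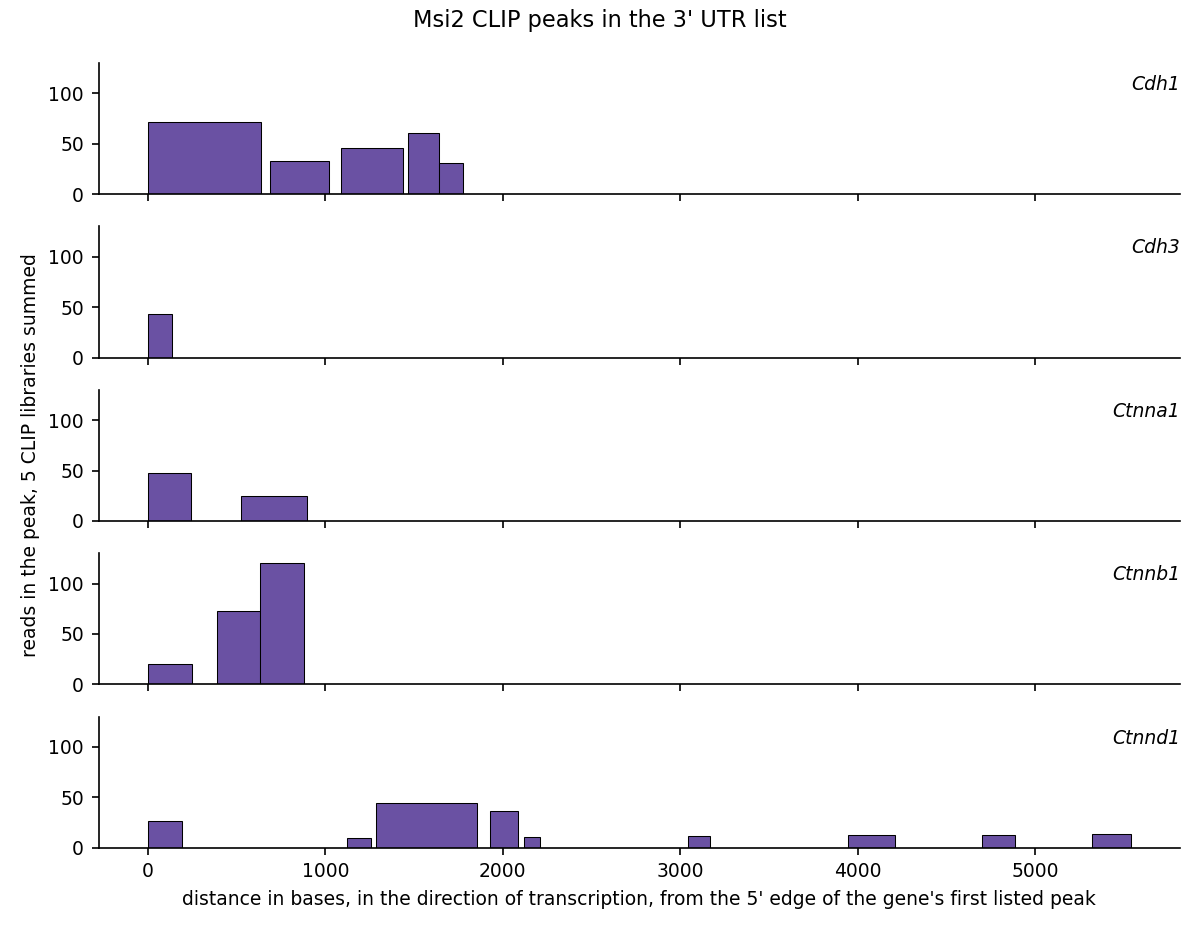
Msi2 CLIP peaks of the 5 genes in the 3' UTR list, by distance in bases along the direction of transcription from the start of the gene's first listed peak; bar width is peak width and bar height is reads in the peak summed over the 5 CLIP libraries. Ctnnd1 has 9 small peaks spread over the widest stretch, Cdh1 has 5 adjoining peaks, and the tallest bar is the last Ctnnb1 peak, with 120 reads.

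Around the 6 genes, partners of the junction were counted from lists. The counts stand beside calls for 22.0% of all genes higher and 21.7% lower in RNA, and 8.76% higher and 7.38% lower in footprints, and nothing particular to a list is read from them. Of 18 nectins, afadin and actin linkers tested in RNA, 10 rose and 1 fell, with a median log2 fold change of 0.40 beside 0.004 over all genes. In footprints, 4 of 16 rose and 2 fell, with a median of 0.27 beside -0.01 over all genes. Mllt4, which encodes afadin, the adaptor that ties nectins to actin, averaged 149.5 ± 10.5 CPM of RNA in the knockdown and 68.3 ± 12.1 CPM in the control (log2 1.13 ± 0.13, adjusted p = 5.58e-06), and rose in footprints as well (0.90 ± 0.14, adjusted p = 1.18e-05). Plekha7, which binds p120-catenin at the junction, rose in RNA (0.81 ± 0.12, adjusted p = 5.81e-05), and its footprint value of 0.37 did not pass (adjusted p = 0.214).

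Relatives of the members were counted next. Of 19 other cadherins in the table, 3 were expressed enough to test in RNA, of which 1 rose: Cdh24, a type II cadherin, with 14.2 ± 0.603 CPM in the knockdown and 6.60 ± 2.40 CPM in the control (log2 1.11 ± 0.23, adjusted p = 0.000872). Cdh11, a cadherin of mesenchymal cells, had a log2 value of 0.70 that did not pass (adjusted p = 0.0856). Of 9 catenin relatives, 6 were expressed enough to test in RNA, of which 2 rose and 1 fell. In footprints 1 of 5 tested rose. Ctnnal1, an alpha-catenin-like protein, rose in RNA (0.83 ± 0.11, adjusted p = 2.67e-05) and footprints (0.98 ± 0.17, adjusted p = 6.00e-05), while Ctnnbip1, an inhibitor of the binding of beta-catenin to TCF factors, fell in RNA (-0.69 ± 0.20, adjusted p = 0.0112).

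Of 12 genes that move cadherins to and from the surface, 2 rose and 3 fell in RNA, a share of calls close to that of all genes, and 0 rose and 2 fell in footprints. Rab11a, the GTPase of recycling endosomes, averaged 101 ± 6.08 CPM of RNA in the knockdown and 189 ± 20.2 CPM in the control (log2 -0.90 ± 0.12, adjusted p = 1.77e-05), and its footprints fell too (-0.64, adjusted p = 0.00146). Arf6, a GTPase of membrane uptake, fell in RNA (-0.43, adjusted p = 0.00302), with a footprint value of -0.20 that did not pass (adjusted p = 0.369). No gene of this list had a call for translational efficiency.

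On the side of beta-catenin, 1 of 8 genes of its destruction complex rose in RNA and 1 fell. The scaffold Apc rose (0.74 ± 0.13, adjusted p = 0.000263) with a footprint value of 0.08 that did not pass (adjusted p = 0.828). The kinase Csnk1a1, which primes beta-catenin for degradation, fell in RNA (-0.70, adjusted p = 0.000341) and footprints (-0.53, adjusted p = 0.00299). Of 14 genes known as targets of beta-catenin and TCF, 8 were expressed enough to test in RNA. Lgr5, Sp5 and Dkk1 had no RNA read in any library. Of the 8 tested, 2 rose, none fell and 6 were not called in RNA, and 1 of 4 tested rose in footprints. The median log2 fold change was -0.06 in RNA, beside 0.004 over all genes, and 0.20 in footprints, beside -0.01. Those that rose in RNA were the hyaluronan receptor Cd44 (0.71, adjusted p = 8.89e-05; footprints 0.39, adjusted p = 0.0430) and Znrf3, a ubiquitin ligase that takes Wnt receptors off the surface (0.93, adjusted p = 0.000896; footprints 0.29, adjusted p = 0.499).

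Of 10 transcription factors known to switch cadherins, 5 were expressed enough to test, and in RNA 0 rose and 1 fell. In footprints 0 of the 5 were called. Snai2 (Slug), a repressor of Cdh1 that basal keratinocytes express, averaged 64.6 ± 8.21 CPM of RNA in the knockdown and 94.2 ± 23.4 CPM in the control (log2 -0.54 ± 0.16, adjusted p = 0.0123), with footprints at -0.43 (adjusted p = 0.0678). Snai3 had a log2 value of 0.31 in RNA (adjusted p = 0.146). The remaining 5, named after their values were seen, were close to 0 in the RNA libraries of each group summed: Snai1 had 10 reads in the knockdown and 5 in the control, Twist1 had 8 in the knockdown and 5 in the control, Zeb1 had 5 in the knockdown and 0 in the control, Zeb2 had 7 in the knockdown and 0 in the control, and Prrx1 had 0 in both.

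Genes of the epithelial and mesenchymal states were counted in the same way. Of 13 epithelial state genes, 2 rose and 3 fell in RNA, no larger a share of calls than among all genes, and 0 rose and 4 fell in footprints. Grhl1, a grainyhead factor of epidermal differentiation, fell in RNA (-0.80, adjusted p = 0.000131) and footprints (-0.92, adjusted p = 0.000160), as did Ovol1, a repressor of mesenchymal genes (RNA -0.76, adjusted p = 0.00110; footprints -0.85, adjusted p = 0.0200). The 2 that rose in RNA, named after their values were seen, were Cldn1 (0.49, adjusted p = 0.00366) and Cldn4 (0.46, adjusted p = 0.00402). Their footprint values of 0.11 and 0.34 did not pass (adjusted p = 0.686 and 0.0700). Of 10 mesenchymal genes beside Cdh2, 6 were expressed enough to test in each assay. Of these 6, 3 rose and 0 fell in RNA, and 4 rose and 0 fell in footprints. The matrix protein fibronectin, Fn1, rose in RNA (0.76, adjusted p = 0.000144) and footprints (0.59, adjusted p = 0.00287), and so did smooth muscle actin, Acta2 (0.95, adjusted p = 0.00563; footprints 0.95, adjusted p = 0.0254). Vim, the intermediate filament gene of mesenchymal cells, also named after its values were seen, had 1 RNA read in the 3 knockdown libraries together and 4 in the control libraries.

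**Figure D5:**
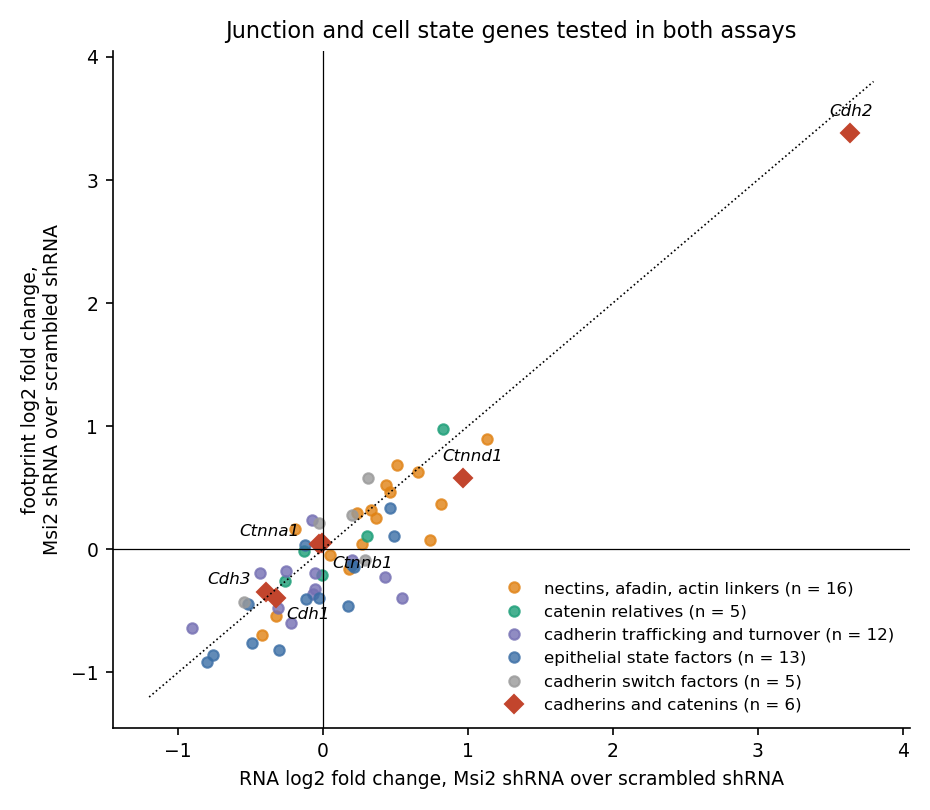
Footprint against RNA log2 fold change, Msi2 shRNA over scrambled shRNA, for the 6 cadherins and catenins (diamonds) and the genes of 5 lists tested in both assays (circles); the dotted line marks equal change. Cdh2 is far from all other points shown, at 3.64 and 3.39, and Ctnnd1 lies among the higher genes, at 0.97 and 0.58.

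Markers of other cell types were read beside the gain of N-cadherin, because fibroblasts, melanocytes, endothelium and muscle also express it. Of 12 fibroblast markers, of which Col1a1 and Fstl1 are named here after their values were seen, 8 had no RNA read in any library (Col1a2, Col3a1, Pdgfrb, Dpt, Lum, Dcn, Thy1 and Fap), and Col1a1 averaged 0.361 CPM in the knockdown and 0.257 CPM in the control. The list summed to 18.7 to 21.9 CPM of RNA in the knockdown libraries and 15.3 to 17.9 CPM in the control libraries, much of it Fstl1 (10.6 CPM in both groups). Of its 3 genes tested in RNA, Pdgfra rose (1.18, adjusted p = 0.0258; 98 reads in the knockdown and 47 in the control) and Twist2 did not pass (0.54, adjusted p = 0.0689). Footprints of the list summed to 56.2 to 66.0 CPM in the knockdown and 47.0 to 64.1 CPM in the control. The part of fibroblast RNA in the Cdh2 result was not tested.

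The melanocyte list summed to 2.08 to 3.77 CPM of RNA in the knockdown and 1.71 to 2.31 CPM in the control, with Dct, Tyr and Sox10 at 0. Its 1 tested gene, Pmel, had a log2 value of 0.17 (adjusted p = 0.761). The endothelial and muscle list summed to 3.60 to 5.51 CPM in the knockdown and 1.69 to 2.65 CPM in the control. Its 1 tested gene, the VEGF receptor Kdr, rose in RNA (1.29, adjusted p = 0.00590) and not in footprints (0.13, adjusted p = 0.850), and its part in the Cdh2 result was not tested. The immune list summed to 8.67 to 13.7 CPM in the knockdown and 16.0 to 18.6 CPM in the control, and its tested gene, the macrophage protein Cd68, fell (-0.78, adjusted p = 0.00323; footprints -1.25, adjusted p = 0.0313).

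Keratinocyte markers were abundant throughout, summing to 13167 to 14864 CPM of RNA in the knockdown and 15967 to 19840 CPM in the control, and the label of the cells was thus met in every library. Of the 8, 3 rose and 3 fell in RNA, and 3 rose and 2 fell in footprints. Col17a1, the hemidesmosome collagen of basal cells, rose in RNA (0.61, adjusted p = 0.00102) and footprints (0.58, adjusted p = 0.00197), and Sfn, the epithelial 14-3-3 sigma, fell in RNA (-0.71, adjusted p = 0.00110) and footprints (-0.49, adjusted p = 0.00727).

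Other genes were ranked by how closely their log2 CPM followed each cadherin, as the smaller of its Pearson correlations over the 6 RNA and over the 6 footprint libraries, among 8004 genes. These describe likeness only, since with groups that stand apart they chiefly reflect the difference between groups, and genes of a library share its depth and scaling. Closest to Cdh2 were Fasn (0.992), the fatty acid synthase, Cpa4 (0.992), a carboxypeptidase, and Nup214 (0.986), a nuclear pore protein. Closest to Cdh1 were Htatip2 (0.975), March5 (0.973), a mitochondrial ubiquitin ligase, and Itm2c (0.968). Closest to Cdh3 were Hook2 (0.986), a microtubule linker, Rdh14 (0.981), a retinol dehydrogenase, and Sprr2h (0.972), a gene of the cornified envelope family.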

How the data were processed

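Per the submitters' processing notes, reads were handled with cutadapt, TopHat, HTSeq, DESeq and Novoalign on mm10, and no versions are given. The authors deposited whole-number counts of reads per gene for RNA and footprints. For CLIP they deposited 2 peak lists in which each peak has a signal, its height with all 5 libraries together (10 or more), and the read counts per library; the peak caller and the strand setting of the counting are not given in the sources used here. RNA reads of no feature (32.3 to 35.2%), of ambiguous assignment (0.175 to 0.228%) and of several alignments (19.8 to 24.5% in the knockdown, 13.4 to 17.4% in the control) stayed out of library sizes and tests.

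Counts were fitted in R 4.3.3 with edgeR 4.0.16 by group, after filterByExpr (count 10, total 15) and TMM scaling, using the robust quasi-likelihood F test. The p-values were adjusted by Benjamini-Hochberg over all genes tested, with calls under 0.05. RNA and footprints were fitted apart. Translational efficiency was the interaction over 12 libraries. Fold changes are knockdown over control with the fit's SE. Alternatives were DESeq2 1.42.0, upper-quartile factors, no filter, 1 fit of 12 libraries, a replicate block, leaving out each library, 1 or 5 counts added to the ratio, and other peak choices. The members and lists were chosen with earlier results of these data known. Named genes are the members, Msi2, the 2 tested genes of each list with the smallest RNA p, and list genes at 0. A few list genes near 0, Fstl1, Cldn1 and Cldn4 were named after their values were seen. The 3 genes most like each cadherin are also named (mean log2 CPM 3 or more in both assays). Positions come from RefSeq's GRCm38.p6 table. No sequences are shown: no genome of the build was used here.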

Additional observations from a re-analysis of the deposited data

How the results depend on the processing

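Cdh2 and Ctnnd1 rose in RNA and footprints, and Cdh3 fell in RNA, under every alternative run. No member was called for translational efficiency under any of them, with no DESeq2 adjusted p for Cdh2. Within an assay, knockdown and control libraries of the same replicate number did not deviate together (correlations of same-numbered deviations -0.28 to 0.06). Differently numbered libraries had correlations of -0.11 to 0.31, the highest for RNA knockdown library 2 with control library 3. A pairing under other numbers was not tested. Whether RNA and footprint libraries of the same number are paired was not tested. With a replicate block, Cdh1 RNA kept its value of -0.32 and missed the threshold (adjusted p = 0.0806), and the genes called numbered 3974 in RNA, 1494 in footprints and 14 in translational efficiency. The other calls of members were the same with the block. Leaving out each library gave Cdh1 values of -0.36 to -0.29 in RNA and -0.51 to -0.31 in footprints, and 842 to 1634 footprint genes called, beside 1448 with all libraries; the lowest counts were without knockdown library 1 (842), knockdown library 3 (849) or control library 1 (907). Translational efficiency calls, 22 with all libraries, ran from 0 to 243, the highest without RNA control library 3. DESeq2 called 854 footprint genes and 99 in translational efficiency. No filter gave 124 in translational efficiency, and upper-quartile factors gave 5 higher and 13 lower, beside 14 higher and 8 lower. Without each group's shallowest footprint library, an alternative chosen after seeing the data, it was 13. Signs turned only for values that did not pass: Ctnna1 RNA was 0.0099 and Ctnnb1 RNA 0.032 with upper-quartile factors, and Ctnna1 footprints were -0.022 without the shallowest libraries. Taking out the dependence on gene span in each library, also chosen after seeing the data, gave Ctnna1 footprints of -0.019 and RNA of -0.27 (adjusted p = 0.0714), Cdh1 RNA of -0.49, Cdh3 footprints of -0.36, now past the threshold, and Ctnnd1 RNA of 0.80. Cdh2 there was 3.35 in RNA, beside 3.64 in the main fit, and 3.30 in footprints, beside 3.39. With a library left out, Ctnna1 RNA ran from -0.080 to 0.0073, and translational efficiency from -0.18 to 0.0022 for Cdh1, -0.80 to 0.98 for Cdh2, -0.022 to 0.17 for Cdh3, -0.035 to 0.13 for Ctnna1 and -0.017 to 0.12 for Ctnnb1. Ctnnd1 kept its sign there, at -0.51 to -0.32. The Cdh2 to Cdh1 ratio kept its direction throughout, and 5 counts added in place of 0.5 gave a difference of 3.94 in RNA and 3.59 in footprints. Peaks of a height of at least 20 numbered 13 of 20. The cause of these moves was not tested. Depth limits Cdh2 most, with 3 to 37 footprint reads in a control library.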
